A study of Saccharomyces cerevisiae with 20 samples.

Results

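The genes described here are the 8 core genes of glycogen metabolism in *Saccharomyces cerevisiae*, GSY1 (YFR015C), GSY2 (YLR258W), GLC3 (YEL011W), GPH1 (YPR160W), GDB1 (YPR184W), GLG1 (YKR058W), GLG2 (YJL137C) and GAC1 (YOR178C). They were chosen by name, for their known place in the pathway, but with earlier results of these data known. All 8 were among the 5985 nuclear protein-coding genes analysed, of 6685 ORFs listed. The study followed the histone acetyltransferase Gcn5 and histone acetylation while yeast cells adapted to salt and recovered from it. Chromatin was immunoprecipitated with antibodies against Gcn5 (through a myc tag), histone H3 acetylated at lysine 18 (H3K18ac), histone H4 acetylated at lysine 16 (H4K16ac) and histone H3, and the DNA was hybridised to genome tiling arrays beside input DNA (ChIP-chip). Cells were taken in 5 states, which are called A to E. State A was exponential growth in YPD, a rich glucose medium, state B was 1 hour after a change to YPD with 1 M KCl, and state C was growth in 1 M KCl after adaptation. State D was 1 hour after the return to YPD without KCl, and state E was growth in YPD after recovery. All states carried the same genotype, a BY4742 strain (MATα, his3, leu2, lys2, ura3) labelled BQS1350 in which GCN5 carries the tag MYC13 with the KanMX6 marker, and untagged cells were not analysed here.

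Glycogen is the branched glucose polymer that yeast stores as a carbohydrate reserve. Glycogenins (Glg1 and Glg2) start a chain on themselves, glycogen synthase (Gsy1 and Gsy2) lengthens it from UDP-glucose, and the branching enzyme Glc3 adds side branches. Glycogen phosphorylase (Gph1) and the debranching enzyme (Gdb1) take the polymer apart, and Gac1 directs the protein phosphatase Glc7 to glycogen synthase, which is active when it is dephosphorylated. Several of these genes are known as stress genes with binding sites for Msn2 and Msn4. H3K18ac is a mark of active promoters to which Gcn5 contributes, H4K16ac is mostly set by another acetyltransferase, Sas2, and H3 serves as a measure of histone density.

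Each value is a ChIP signal against input on a log scale of unstated base, in arbitrary units that are defined separately for each antibody, and levels are therefore compared between states and not between antibodies. The level at the 5′ intergenic region (5′ IGR) is the mean of the 9 bins upstream of the start codon, the ORF level averages 8 bins, its central 40%, and the level at the 3′ IGR is the mean of the 9 bins downstream. Bins are numbered along the gene, 0 to 8 in the 5′ IGR, 9 to 28 in the ORF and 29 to 37 in the 3′ IGR. Although 2 cultures were grown, the files hold a single value per gene, bin, antibody and state. Neither a replicate error nor a test between states can therefore be given, and the precision is limited by the small number of arrays. A gene is said to have risen or fallen where 2 states differ by at least 0.2. The share of all 5985 genes that did so is given beside each count at the reported settings. The Gcn5 values of state B stood apart. Their rank correlations over genes with the other states lay between 0.657 and 0.801, whereas the other 4 states correlated with each other at 0.835 to 0.923. The study's methods give the same catalogue number for the H3K18ac and the H3 antibody. The bin values of these antibodies had correlations of only 0.0448 to 0.207 in the 5 states, and what the H3K18ac antibody bound was not tested.

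H3K18ac at the 5′ IGR rose at 5 of the 8 glycogen genes in state B compared with state A, at GDB1, GAC1, GLC3, GLG1 and GPH1, against 13.1% of all genes. It fell at 1, GSY2, where 22.4% of all genes fell. The median difference was 0.30 over the 8 genes and -0.051 over all genes. The rises were similar in size, between 0.28 and 0.45. They were found at GLG1 (chain initiation), GLC3 (branching), GPH1 and GDB1 (breakdown) and GAC1 (phosphatase subunit).

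**Figure D1:**
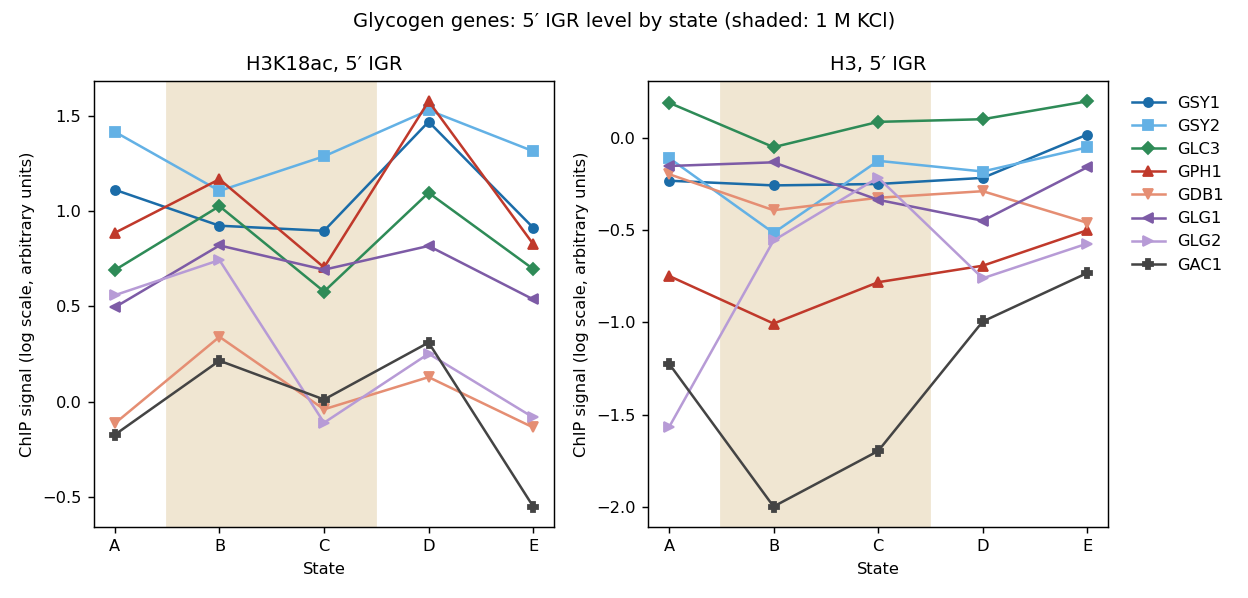
H3K18ac (left) and H3 (right) at the 5′ IGR of the 8 glycogen genes, as the ChIP signal on a log scale in arbitrary units (y axis) in states A to E (x axis). Each line is a gene and each point the deposited value after median scaling, with no error available, and the shaded states were in 1 M KCl. H3K18ac at GPH1 reached 1.17 in state B and 1.57 in state D, and H3 at GAC1 was lowest in state B at -2.0.

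Of the genes that break glycogen down, GPH1 had 5′ IGR H3K18ac levels of 0.89, 1.17, 0.70, 1.57 and 0.83 in states A, B, C, D and E. Its 2 high states were those sampled 1 hour after a change of medium, in either direction. GDB1 had levels of -0.11, 0.34, -0.04, 0.13 and -0.13 in states A to E. Here state B was the highest, 0.45 above state A, which was a larger rise than at any other of the 8 genes.

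Of the genes that build the polymer, GLC3 had 5′ IGR H3K18ac levels of 0.69, 1.03, 0.58, 1.10 and 0.70 in states A to E. Like GPH1, it was high in states B and D and low in the 3 states of steady growth. GSY2, which encodes the predominant glycogen synthase, had levels of 1.41, 1.11, 1.29, 1.53 and 1.31, and GSY1, its paralogue, had levels of 1.11, 0.92, 0.90, 1.47 and 0.91. Both synthase genes were high in state D, but in state B GSY2 was at its lowest, 0.31 below state A, and the difference of -0.19 at GSY1 was below the limit of 0.2.

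The initiator gene GLG1 had levels of 0.50, 0.82, 0.69, 0.82 and 0.54 in states A to E, and the phosphatase subunit gene GAC1 had levels of -0.17, 0.22, 0.01, 0.31 and -0.55. Both were above their state A level in states B, C and D. The 5′ IGR of GLG1 lies in the intergenic region downstream of RPS21A, which encodes a ribosomal protein. The 3′ IGR of RPS21A had levels of 0.59, 0.99, 0.80, 0.94 and 0.63 in states A to E. The rise of 0.40 there cannot be assigned to either gene. Within GLG1 the largest differences between states B and A were in the bins farthest from the start codon. They were 0.67, 0.72 and 0.63 at bins 0, 1 and 2. At bins 5, 6, 7 and 8, nearest the start codon, they were 0.10, 0.13, 0.19 and 0.17, each below the limit. GLG2, the other initiator gene, had levels of 0.56, 0.74, -0.11, 0.25 and -0.08, and its difference of 0.18 between states B and A was below the limit. The 5′ IGR of GLG2 is poorly resolved. It lies between GLG2 and the divergent gene YJL136W-A, and over the 20 files 25 of its bin values lay midway between the neighbouring bins (to within 1e-09), against 2 such values in GDB1 and none in the other 6 genes. Without GLG2 the count of genes with a rise remained 5 and the median difference was 0.32.

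After the return to medium without KCl, 5′ IGR H3K18ac was higher in state D than in state C at all 8 genes, and by at least 0.2 at 6 of them, where 20.8% of all genes rose. GPH1 rose by 0.87, GSY1 by 0.57, GLC3 by 0.52, GLG2 by 0.36, GAC1 by 0.30 and GSY2 by 0.24. The 2 exceptions, GDB1 with a difference of 0.17 and GLG1 with 0.12, were among the genes that rose in state B. State D was the highest of the 5 states at 5 of the 8 genes (GSY1, GSY2, GLC3, GPH1 and GAC1), whereas it was the highest at 24.6% of all genes.

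H3 at the 5′ IGR fell at 4 of the 8 genes in state B compared with state A, against 8.62% of all genes. The gene with the largest fall was GAC1, with H3 levels of -1.22, -2.0, -1.70, -1.0 and -0.73 in states A, B, C, D and E. The 2 states in KCl were the lowest there, and state B was lower than state C. The largest fall within GAC1 lay at bin 3, where the H3 signal was low, with -4.19 in state B and -2.67 in state A. At GSY2 the levels were -0.11, -0.52, -0.12, -0.18 and -0.05, so that only state B stood below the rest. At GPH1 they were -0.75, -1.01, -0.78, -0.69 and -0.50, and at GLC3 they were 0.19, -0.05, 0.09, 0.10 and 0.20. State B was the lowest of the 5 at both, with differences of -0.26 and -0.24 from state A. The difference was -0.20 at GDB1, just short of the limit, -0.03 at GSY1 and 0.02 at GLG1. GLG2 went the other way, with -0.56 in state B and -1.57 in state A, a difference of 1.01 in the poorly resolved region described above. With the median of the 9 bins in place of the mean, H3 fell at 2 of the 8 genes, and the median difference was -0.087 in place of -0.22.

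The bins placed this fall differently in GSY2 and GPH1. In GSY2, H3 dipped in the bins next to the start codon in every state, and at the lowest point, bin 6, it was -2.10 in state B and -0.86 in state A. H3K18ac had its largest 5′ fall at the same bin, with 0.69 in state B and 1.60 in state A. In GPH1 the H3 dip was deep in every state, with -2.35 in state B and -2.52 in state A at bin 6. Its falls lay on both sides of the dip, with -1.66 in state B and -0.90 in state A at bin 7, beside the dip, and with -1.03 in state B and -0.34 in state A at bin 0, the bin farthest from the start codon. The upstream neighbour of GPH1 is a tRNA gene, with a gap of 856 bp. Whether the fall at bin 0 belongs to GPH1 or to this neighbour was not tested. At bin 6 of GPH1, H3K18ac was 1.04 in state B and 0.28 in state A. The 5′ part with the H3 dip thus gained H3K18ac signal in GPH1 and lost it in GSY2.

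**Figure D2:**
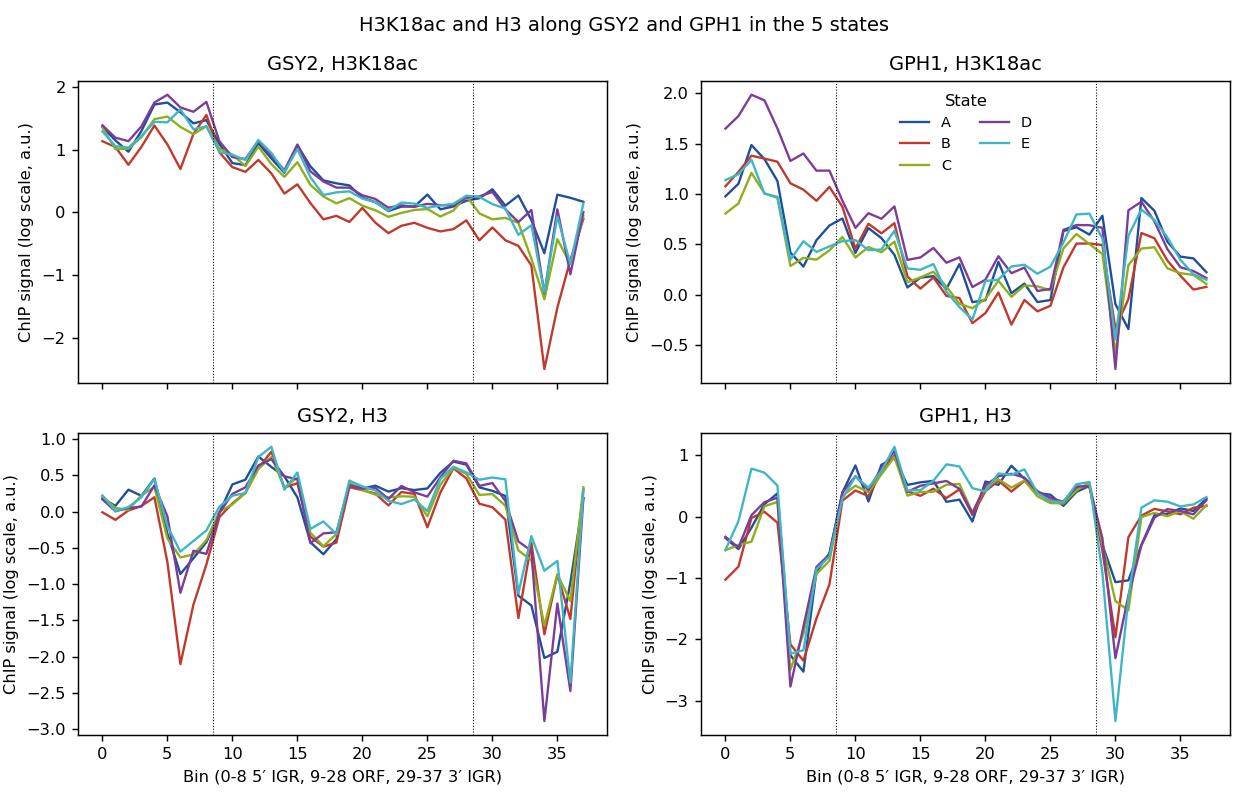
H3K18ac (top) and H3 (bottom) along GSY2 (left) and GPH1 (right), as the ChIP signal on a log scale in arbitrary units (y axis) over the 38 bins of each gene (x axis), with 1 line per state. Dotted lines bound the ORF. At bin 6 H3 in GSY2 was -2.10 in state B and -0.86 in state A, and H3K18ac in GPH1 was 1.04 in state B and 0.28 in state A.

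With the H3 value of the same bin subtracted, 5′ IGR H3K18ac rose at the same 5 genes in state B, against 15.9% of all genes. The differences were 1.16 at GAC1, 0.65 at GDB1, 0.58 at GLC3, 0.54 at GPH1 and 0.30 at GLG1. The value at GAC1 includes bins with a low H3 signal. At bin 3 of GAC1, H3 was -4.19 in state B and -2.67 in state A, and H3K18ac was -0.30 and -1.37. The authors advise caution with values set against H3, which become inflated where histones are absent. The subtraction turned the fall at GSY2 into a difference of 0.10, with 1.62 in state B and 1.52 in state A. GSY1 had a difference of -0.16. GLG2 alone fell, by 0.83, where 33.9% of all genes fell, and its H3 level in state A was the low value of -1.57. Against the mean of the other 4 states the state B value of GLG2 was instead 0.36 higher, and none of the 8 genes fell. The median difference was 0.42 over the 8 genes and -0.085 over all genes.

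Inside the ORF, H3K18ac fell at 3 of the 8 genes in state B compared with state A, at GSY1, GSY2 and GDB1, against 6.37% of all genes. GSY2 had levels of 0.45, -0.02, 0.24, 0.45 and 0.37 in states A, B, C, D and E, GSY1 had levels of 0.27, -0.17, 0.06, 0.38 and 0.16, and GDB1 had levels of 0.07, -0.32, -0.11, 0.10 and 0.17. In all 3 genes state B was the lowest and state C, also in KCl, the next lowest. Of the 3, GDB1 had risen at the 5′ IGR, whereas GSY1 and GSY2 had negative differences in both regions. GPH1 had levels of 0.12, -0.07, 0.04, 0.29 and 0.10, with a difference of -0.18. At GLC3, GLG1 and GAC1 the differences lay between -0.13 and -0.03, and GLG2 had a difference of 0.10. State B was nevertheless the lowest of the 5 states at 7 of the 8 genes, all but GLG2, against 20.9% of all genes. The median difference was -0.16 over the 8 genes and 0.026 over all genes. H3 in the ORF changed by no more than 0.082 at any of the 8 genes between states A and B, so that the falls at GSY1, GSY2 and GDB1 remained at -0.35, -0.47 and -0.41 relative to H3.

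**Figure D3:**
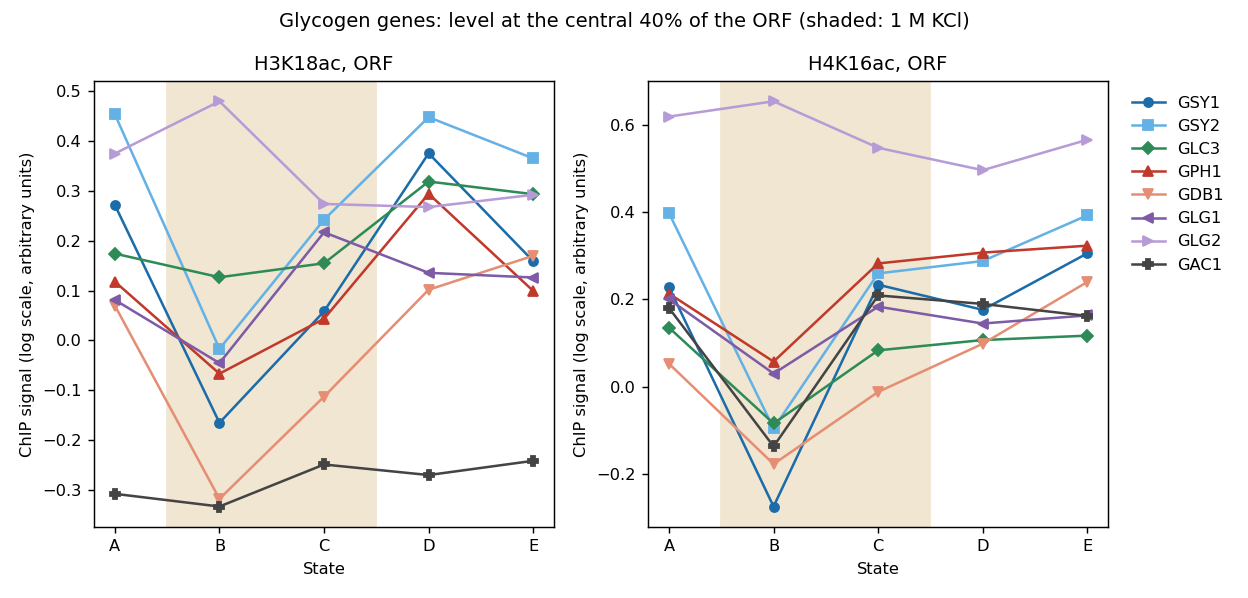
H3K18ac (left) and H4K16ac (right) in the central 40% of the ORF of the 8 glycogen genes, as the ChIP signal on a log scale in arbitrary units (y axis) in states A to E (x axis), with 1 line per gene and states in 1 M KCl shaded. State B is the lowest at 7 of the 8 genes in both panels, and GLG2 is the exception.

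Along the ORF the median of the 8 genes changed sign. For a closer view the ORF was divided into 4 blocks of 5 bins, a division chosen after the values had been seen. In the first block H3K18ac rose at 4 of the 8 genes in state B compared with state A, at GDB1, GLG1, GLG2 and GLC3, against 12.2% of all genes, and the median difference was 0.21. In the third block it fell at 5 of the 8, at GSY2, GDB1, GSY1, GLG1 and GPH1, against 7.32% of all genes, and the median difference was -0.24. GDB1 carried both signs, with 0.35 in the first block and -0.33 in the third. GLG1 had 0.32 in the first block and -0.26 in the third, and its largest rise was at bin 12, with 1.43 in state B and 0.62 in state A. GSY2 was lower in state B in all 4 blocks, by 0.16 in the first and by 0.54, 0.35 and 0.36 in the others. The plot along the bins shows the median of the 8 genes above 0 up to bin 14 and below 0 in all later bins.

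**Figure D4:**
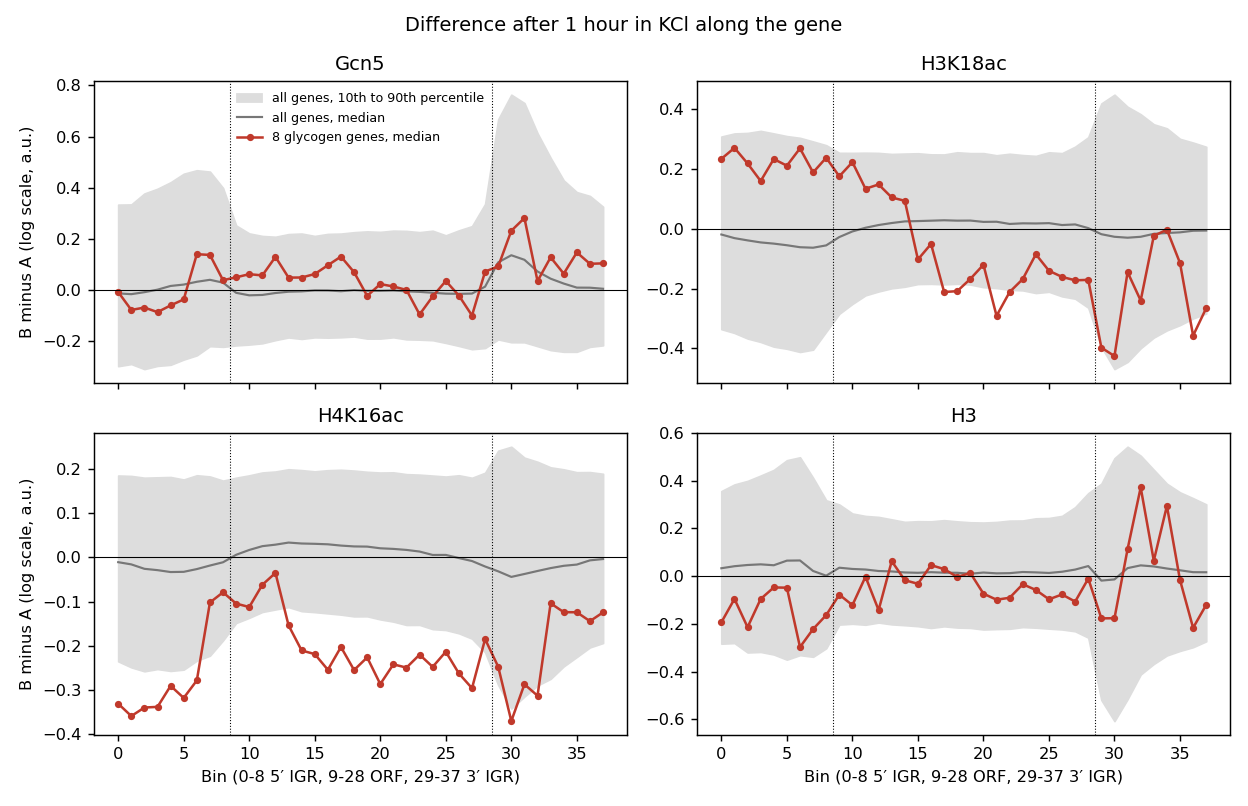
State B minus state A along the gene for Gcn5, H3K18ac, H4K16ac and H3, as the difference on a log scale in arbitrary units (y axis) over the 38 bins (x axis, dotted lines at the ends of the ORF). The red line is the median of the 8 glycogen genes, the grey line the median of all 5985 genes and the band their 10th to 90th percentile. The H3K18ac median of the 8 genes changes sign inside the ORF, and the H4K16ac median stays below 0.

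The median H4K16ac difference of the 8 genes between states B and A was below 0 in all 38 bins, although only 4 of the 8 genes were lower at bin 12 in the ORF. In the central ORF H4K16ac fell at 5 of the 8 genes, at GSY1, GSY2, GAC1, GDB1 and GLC3, against 2.96% of all genes, and the median difference was -0.22 against 0.026 over all genes. GSY1 had ORF levels of 0.23, -0.27, 0.23, 0.18 and 0.31 in states A to E, and GSY2 had levels of 0.40, -0.10, 0.26, 0.29 and 0.39. In both synthase genes states A, C, D and E lay close together and state B alone was low. GAC1 had levels of 0.18, -0.14, 0.21, 0.19 and 0.16, with the same pattern. GDB1 had levels of 0.05, -0.18, -0.01, 0.10 and 0.24, and GLC3 had levels of 0.14, -0.08, 0.08, 0.11 and 0.12. The sign at GDB1 turned in the first block of the ORF, where its difference was 0.14 and those of GLG1 and GLG2 were 0.11 and 0.079. GLG1 and GPH1 had differences of -0.17 and -0.16. Across the 8 genes state B was the lowest state at 7, against 18.2% of all genes, and GLG2 was again the exception, with 0.65 in state B and 0.62 in state A.

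Relative to H3, ORF H4K16ac fell at 4 of the 8 genes, against 7.72% of all genes. These were GSY2 (-0.49), GSY1 (-0.42), GAC1 (-0.29) and GDB1 (-0.26), and GLC3 had a difference of -0.18. In the third block of the ORF 6 of the 8 genes fell, against 3.69% of all genes, with GDB1 (-0.15) and GLG2 (0.03) as the exceptions.

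At the 5′ IGR, H4K16ac fell at 5 of the 8 genes in state B compared with state A, against 8.94% of all genes. GSY1 had levels of 0.53, -0.12, 0.64, 0.47 and 0.49 in states A to E, and GSY2 had levels of 1.04, 0.43, 0.91, 0.97 and 1.05. State B was the lowest state at both, by a margin of more than 0.4. GAC1 fell by 0.44, GPH1 by 0.28 and GLC3 by 0.24. At GAC1, GPH1 and GLC3 the same region gained H3K18ac in state B, whereas the synthase genes gained neither mark. GDB1, GLG1 and GLG2 had differences of -0.01, 0.06 and -0.18. Relative to H3 the difference was 0.33 at GAC1, 0.00 at GLC3 and -0.02 at GPH1, where H3 had also fallen, while GSY1 had a difference of -0.63 and GSY2 one of -0.20.

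**Figure D5:**
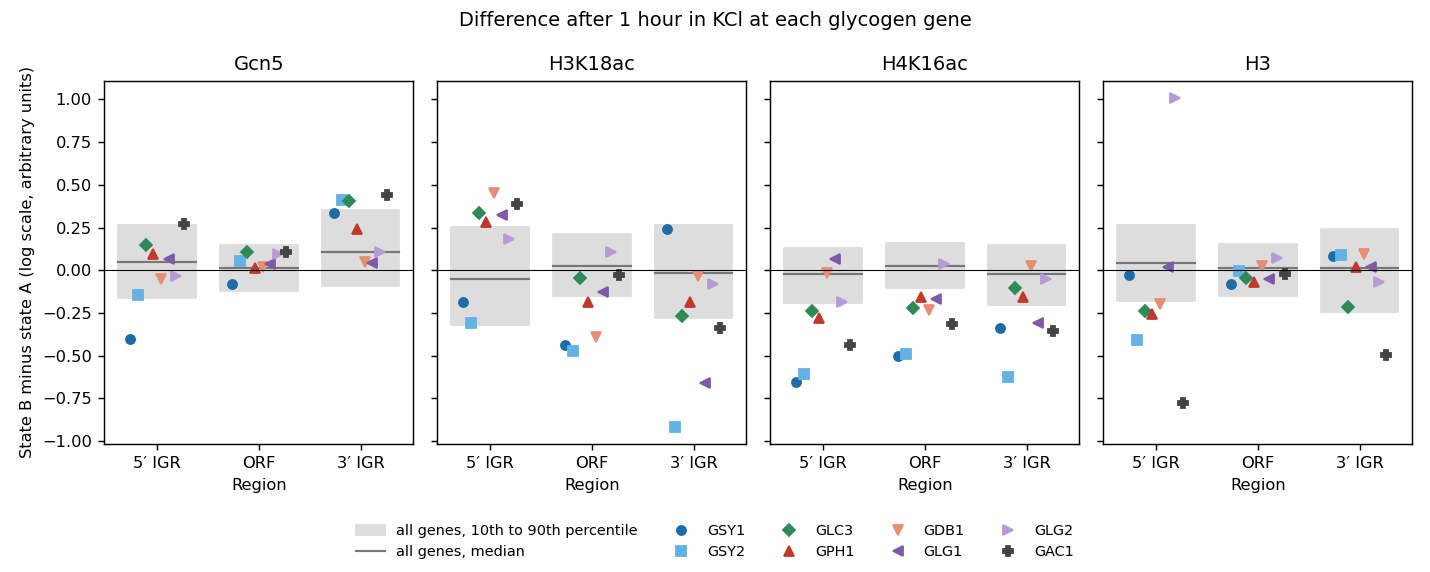
State B minus state A for each glycogen gene (coloured symbols), as the difference on a log scale in arbitrary units (y axis) at the 5′ IGR, the ORF and the 3′ IGR (x axis) for Gcn5, H3K18ac, H4K16ac and H3. Grey boxes span the 10th to 90th percentile of all 5985 genes and grey lines their median. At the ORF, GSY1, GSY2, GDB1 and GPH1 lie below the box of H3K18ac, and all genes but GLG2 lie below the box of H4K16ac. GLG2 is at 1.01 for H3 at the 5′ IGR.

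At the 3′ IGR, H3K18ac fell at 4 of the 8 genes in state B compared with state A, against 17.6% of all genes, and H4K16ac fell at 4, against 10.6%. GSY2 had H3K18ac levels of 0.10, -0.82, -0.42, -0.19 and -0.24 in states A to E, and its difference of -0.92 lay at percentile 0.06 of all genes. State A was the highest there and the states in KCl the lowest. The same intergenic region holds the 3′ IGR of the convergent neighbour HSP60, whose difference was -0.91. The study's methods end each IGR at the middle of the intergenic region, yet these values were nearly equal. Whether the bins of neighbours overlap was not tested, and the fall cannot be assigned to either gene. GLG1 had levels of 0.46, -0.20, 0.75, 0.31 and 0.48, lowest in state B by a wide margin. Its 3′ IGR is upstream of TIF1, which encodes the translation factor eIF4A. The 5′ IGR of TIF1 had similar levels of 0.52, -0.20, 0.83, 0.35 and 0.54 and a difference of -0.72. This fall, too, cannot be assigned to either gene. GAC1 and GLC3 fell by 0.34 and 0.27. The neighbour downstream of GLC3 is a tRNA gene, with a gap of 190 bp. GSY1 rose by 0.24, with levels of 0.63, 0.87, 0.41, 1.21 and 0.61 and the largest differences at bins 31 and 32 (1.06 and 0.78). This region is upstream of the kinase gene CMK1, whose 5′ IGR levels were 0.54, 0.82, 0.34, 1.17 and 0.54. The difference at CMK1 was 0.28, and the rise cannot be assigned to either gene. H4K16ac at the 3′ IGR fell by 0.63 at GSY2, 0.36 at GAC1, 0.34 at GSY1 and 0.31 at GLG1. The H4K16ac differences in the neighbours' regions were -0.62 at HSP60, -0.42 at CMK1 and -0.34 at TIF1.

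Gcn5 itself changed at these promoters about as often as over all genes. At the 5′ IGR it fell in state B compared with state A at 1 of the 8 genes, against 7.75% of all genes, and rose at 1, against 16.8%. It fell at GSY1, with levels of 0.35, -0.06, 0.22, 0.44 and 0.27 in states A to E, and rose at GAC1, with levels of -0.07, 0.20, 0.21, 0.00 and -0.15. At GAC1 the 2 states in KCl were high and at GSY1 only state B was low. The largest rise within GAC1 lay at bin 3, where the H3 signal was low, with Gcn5 at 0.07 in state B and -0.91 in state A. The fall at GSY1 lay far from the start codon, with -0.70 in state B and 0.23 in state A at bin 2, and over the 4 bins nearest the start codon the difference was 0.061. The other 6 genes had differences between -0.14 and 0.15, and the median was 0.017 over the 8 genes and 0.046 over all genes. State E was the lowest of the 5 states at 7 of the 8 genes, all but GSY1, against 27.1% of all genes, with differences from state A between -0.18 and -0.026. Over the alternative settings this count lay between 5 and 7. GLG2 is among these genes, although its Gcn5 value was the same at bins 5 to 8, with -0.0033 in state A and 0.019 in state E. Relative to H3, 5′ IGR Gcn5 rose in state B at 4 of the 8 genes, against 20.1% of all genes, by 1.05 at GAC1, 0.39 at GLC3, 0.35 at GPH1 and 0.26 at GSY2. At GLC3 and GPH1 the Gcn5 difference itself was below 0.2, and the H3 differences were -0.24 and -0.26. At GSY2 the Gcn5 level was 0.17 in state B and 0.31 in state A. With the median of the 9 bins in place of the mean, the difference at GSY2 relative to H3 was -0.17.

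Gcn5 at the ORF differed little between states B and A, with differences between -0.079 and 0.11 at the 8 genes. State B was the highest of the 5 states at 7 of the 8, all but GSY1, against 42.0% of all genes. This count depended on the scaling, since it was 2 with the values as deposited and 3 with quantile normalization. At the 3′ IGR Gcn5 rose at 5 of the 8 genes, where 28.7% of all genes rose. GAC1 had levels of -0.25, 0.19, 0.11, 0.00 and -0.17 in states A to E, and GSY2 had levels of 0.04, 0.45, 0.02, 0.07 and 0.08. GLC3 rose by 0.41, GSY1 by 0.34 and GPH1 by 0.24. At GLC3 state B was above state A in every bin of the 3′ IGR. In the other genes with a rise, the largest difference lay at a bin with a low state A value. At bin 31, Gcn5 was 0.37 in state B and -1.48 in state A in GSY1, and 0.20 and -0.90 in GPH1. It was 0.72 and -1.08 at bin 32 of GAC1, and 0.61 and -0.78 at bin 36 of GSY2. How far the rises at GSY1, GPH1, GAC1 and GSY2 rest on single bins was not tested. State B was the highest state at the 3′ IGR of 6 of the 8 genes, a share not far from the 56.8% of all genes for which this held. The convergent neighbour of GSY2, HSP60, had a difference of 0.40 in its 3′ IGR, in the same intergenic region. CMK1, downstream of GSY1, had a difference of 0.29 in its 5′ IGR. These rises cannot be assigned to either neighbour. The 3′ values are from the Gcn5 state that stood apart from the others, and the part of this in the result was not tested.

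After recovery, H3 in the ORF was highest in state E at 6 of the 8 genes, against 31.3% of all genes. The differences between states E and A were small, between -0.017 and 0.19, and none reached 0.2.

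The pathway has paralogous pairs at the synthase and the initiation step. GSY1 and GSY2 had nearly equal differences between states B and A in ORF H3K18ac (-0.44 and -0.47), ORF H4K16ac (-0.50 and -0.49) and 5′ IGR H4K16ac (-0.66 and -0.60), and unequal ones in 3′ IGR H3K18ac (0.24 and -0.92) and at the 5′ IGR in H3 (-0.03 and -0.41), Gcn5 relative to H3 (-0.38 and 0.26) and H4K16ac relative to H3 (-0.63 and -0.20). The 3′ IGRs of GSY1 and GSY2 lie in intergenic regions shared with CMK1 and HSP60. The unequal 3′ values therefore cannot be assigned to the synthase genes. GLG1 and GLG2 had opposite signs in ORF H3K18ac (-0.13 and 0.10) and in ORF H4K16ac (-0.17 and 0.04). The members of each pair are similar in sequence. The deposited bins do not show which probes they share, and cross-hybridisation was not tested.

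Among 19 other genes of glycogen metabolism and its control, 5′ IGR H3K18ac relative to H3 rose at 7 and fell at 5 in state B compared with state A, with a median difference of 0.044 against -0.085 over all genes. The shares of all genes were 15.9% and 33.9%, as given above. GIP2, which encodes a further Glc7-binding protein, rose by 1.12, and its H3K18ac levels were -0.08, 0.96, 0.06, 0.26 and -0.17 in states A to E. PGM2, the main phosphoglucomutase, rose by 0.98, with H3K18ac levels of 0.47, 1.10, 0.47, 1.15 and 0.46. The state B level of GIP2 stood alone, whereas PGM2 was high in states B and D, as GPH1 and GLC3 were. MSN4 and MSN2, the stress transcription factor genes, rose by 0.75 and 0.48. SGA1 (sporulation glucoamylase), IGD1 (an inhibitor of Gdb1) and PIG1 (a putative phosphatase-targeting subunit) rose by 0.59, 0.51 and 0.50. Those that fell were REG1 (-0.48), PGM1 (-0.40), PHO85 (-0.27), PCL10 (-0.25) and PIG2 (-0.20), of which Pho85 with its cyclin Pcl10 is a kinase of glycogen synthase. In ORF H4K16ac 3 of these 19 genes fell, UGP1, MSN2 and PGM2, where 2.96% of all genes fell.

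The 7 genes of trehalose metabolism, the other carbohydrate reserve of yeast, were read in the same way. ORF H4K16ac fell at 5 of the 7 in state B, at TPS2 (-0.53), TSL1 (-0.50), NTH1 (-0.28), TPS1 (-0.24) and TPS3 (-0.22), where 2.96% of all genes fell. The median difference was -0.24, close to the -0.22 of the glycogen genes. At the 5′ IGR, H3K18ac relative to H3 rose at 3 of the 7, by 0.84 at ATH1 (acid trehalase), 0.57 at NTH2 (neutral trehalase) and 0.44 at TSL1 (a synthase subunit), where 15.9% of all genes rose. TSL1 was the gene with both changes.

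The pattern of each gene over antibodies and states was also set against the mean pattern of the 8 glycogen genes, over 20 values at the 5′ IGR (4 antibodies in 5 states), each centred on the mean of its antibody for that gene and divided by the spread over all genes. The 5 genes most like the 8 were MRK1 (r = 0.899, a protein kinase), HXK1 (0.890, a hexokinase), HXT7 (0.888, a glucose transporter), MDG1 (0.885) and MOT2 (0.874). These are correlations over values that share arrays, given as a description. Among the glycogen genes, GPH1 (0.862) and GLC3 (0.826) were most like the mean of the other 7. GSY1, GAC1 and GSY2 lay between 0.567 and 0.619, and GDB1 (0.266), GLG2 (0.113) and GLG1 (0.046) had little in common with it. Likeness over the 20 values did not require a rise of H3K18ac in state B. Of the 5 genes most like the 8, MRK1 and HXK1 rose by 0.37 and 0.36. MDG1 and MOT2 had differences of 0.09 and 0.06, below the limit, and HXT7 fell by 0.25.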

How the data were processed

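ChIP-chip signals of 4 antibodies in 5 states were analysed, 20 files in all. The authors used *S. cerevisiae* Tiling 1.0R arrays (Affymetrix) for ChIP and input DNA, derived signals with Tiling Analysis Software and normalized the 5 states to the same median. What was deposited is a score per bin, the ChIP signal on a log scale of unstated base, averaged by the authors over 9, 20 and 9 bins of the 5′ IGR, ORF and 3′ IGR. The genome build is not given in the sources used here.

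The 5 states of each antibody were brought to the mean of their medians over all bins of 5985 nuclear protein-coding genes with complete values of absolute size up to 20. Names and neighbours came from the RefSeq table of assembly R64. Values relative to H3 are differences in the same bin. The Gcn5 file of state A holds 2911 values of exactly 0, 7 of them in the glycogen genes, and the H4K16ac file of state E holds 1325, 2 of them there.

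With 1 value per condition no test was run. Named genes are the 8 genes, those of 2 further lists (19 other glycogen genes and 7 trehalose genes) that differed by at least 0.2 in 5′ IGR H3K18ac relative to H3, and the 5 most similar in pattern. Neighbours were named after their values were seen, as were the other genes given for ORF H4K16ac. The genes and lists were chosen with earlier results of these data known. Alternatives covered the scaling, bins, threshold, genes and comparison state. Functions were tested on simulated data. The tools were matplotlib 3.10.9, scipy 1.17.1, pandas 2.3.3 and numpy 2.4.6 under Python 3.11.15.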

Additional observations from a re-analysis of the deposited data

How the results depend on the processing

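Of 315 recomputed counts and medians, 271 stayed within 1.5 times the count, or within the spread of the other states, of the reported value, and 44 moved. Of 803 single-gene differences 676 stayed, 121 moved and 6 with a reported size of at least 0.2 changed sign. A change of sign in a smaller difference was counted among those that stayed or moved. No paired analysis was possible because each state has 1 deposited value per antibody. Apart from the 4 ORF blocks, shares of all genes were computed only at the reported settings. The counts below at other settings therefore cannot be set against a share. They show only how the reported counts depend on the processing. At a threshold of 0.4 the genes with a difference between states B and A numbered 1 (5′ IGR H3K18ac, higher), 0 (the same, lower), 2 (3′ IGR H3K18ac), 2 (5′ IGR H3), 3, 2 and 1 (H4K16ac at the 5′ IGR, ORF and 3′ IGR), 2 (ORF H4K16ac relative to H3), 3 (3′ IGR Gcn5), 0 (5′ IGR Gcn5, higher) and 1 (5′ IGR Gcn5 relative to H3). The rise of H3K18ac between states C and D was then met by 3 genes, the other glycogen genes that fell numbered 1 and the trehalose genes 2. At 0.1, ORF H3K18ac fell at 5, and 5′ IGR H3K18ac at 2, both as such and relative to H3, while 5′ IGR Gcn5 rose at 2 and fell at 2. Against the mean of the other 4 states, 3′ IGR H3K18ac fell at 2 genes (median -0.15), the 5′ IGR H3 median was -0.14, GLG2 had 0.36 in H3K18ac relative to H3 and 0 genes fell in that measure, as also without GLG2, an alternative chosen after seeing the data. With the median of the 9 bins, 5′ IGR H3 fell at 2 genes (median -0.087), 5′ IGR H3K18ac at 2, as such and relative to H3, the Gcn5 median relative to H3 was 0.030, GSY2 had -0.17 in that measure, and Gcn5 itself fell at 2 genes. With the 4 bins nearest the start codon 5′ IGR Gcn5 fell at 0 genes, and GSY1 had 0.061 in Gcn5 and 0.015 in Gcn5 relative to H3. Quantile normalization gave a 3′ IGR Gcn5 median of 0.21. State B was the highest in ORF Gcn5 at 3 genes with it and at 2 with the values as deposited. Over the whole ORF, H4K16ac relative to H3 fell at 2 genes (median -0.14), and without GLG2 its median was -0.26. In the first of 4 ORF blocks, likewise chosen after seeing the data, H3K18ac fell at 0 genes (median 0.21), against 10.8% of all genes. H4K16ac fell there at 3 (median -0.091), against 3.36%. GDB1 had 0.35 in H3K18ac and 0.14 in H4K16ac. The H3K18ac median was -0.050 in the second block and -0.24 in the third, where 5 genes fell, against 7.32% of all genes. The cause was not tested. With 1 value per state, differences near 0.2 cannot be told from array noise.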
